A study of Rattus norvegicus with 23 samples.

Results

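The genes described here are 9 receptors through which noradrenaline, acetylcholine and adenosine act on the heart and its vessels: Adra1a, Adra1b and Adra1d (alpha1 adrenoceptors), Adrb1 and Adrb3 (beta adrenoceptors), Chrm2 and Chrm3 (muscarinic receptors), and Adora1 and Adora2a (adenosine receptors). They are 9 of 16544 genes named on the array, and were found through the transcript accessions of the scanner files, which placed 13 of 45440 probes on them. Adra1a has 3 probes, Chrm2 and Chrm3 have 2 each, and the other 6 genes have 1 each. All 9 genes passed the filter on low signals.

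RNA was taken from male Wistar rats aged 8 to 11 weeks, 12 animals in all, and hybridised to 23 single-color Agilent rat arrays. There were 4 arrays each of left atrium next to the pulmonary vein (LA), left ventricle (LV), sinoauricular node (SA), pulmonary vein (PV) and pulmonary artery (PA), and 3 arrays of right ventricular free wall (RV). The labels name no altered allele and no agent for any group, an SA sample held tissue of 2 rats, and PA is an extracardiac tissue. Per the methods, each left ventricle was cut into pieces that served as samples, so LV arrays may hold pieces of the same heart. Which samples came from the same animal is otherwise not given in the sources used here, so the p-values measure the spread between these samples, which share a small pool of animals. The comparison asks how the expression of these receptors is divided among the working muscle, the pacemaker region and the great vessels.

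All 9 proteins are heptahelical receptors that work through heterotrimeric G proteins. Alpha1 adrenoceptors and the M3 receptor couple to Gq and phospholipase C, which releases calcium from stores and contracts vascular smooth muscle, while beta adrenoceptors and the receptor of Adora2a couple to Gs and raise cyclic AMP. The M2 and A1 receptors couple to Gi and Go, lower cyclic AMP and open the potassium channel built from Kcnj3 and Kcnj5, by which the vagus nerve slows the pacemaker.

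The promoters of 6 of the 9 genes were found in the RefSeq table used here (assembly GRCr8), and those of Adra1a, Adrb3 and Adora2a were not analysed here. Shown are the 250 bases upstream of the annotated start, 5′ to 3′ on the gene's strand, for the 3 genes with the widest regional differences among those found. Adra1b and Chrm2 have their lowest signals in PA, and Adra1d has its highest there. Capitals mark a GC box, GGGCGG on either strand, or an E-box, CANNTG; the sequence of Adra1b and that of Adra1d hold neither and have no capitals.
Adra1b: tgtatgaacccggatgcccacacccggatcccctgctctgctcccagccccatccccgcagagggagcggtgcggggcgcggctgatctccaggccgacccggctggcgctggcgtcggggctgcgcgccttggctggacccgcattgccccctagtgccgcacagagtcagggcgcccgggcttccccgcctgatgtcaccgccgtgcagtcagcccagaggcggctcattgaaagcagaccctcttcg
Adra1d: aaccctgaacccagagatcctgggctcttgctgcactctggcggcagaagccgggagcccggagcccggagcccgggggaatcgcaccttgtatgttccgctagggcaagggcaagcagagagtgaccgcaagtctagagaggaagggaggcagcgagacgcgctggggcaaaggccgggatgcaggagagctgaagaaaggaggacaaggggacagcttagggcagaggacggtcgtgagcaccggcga
Chrm2: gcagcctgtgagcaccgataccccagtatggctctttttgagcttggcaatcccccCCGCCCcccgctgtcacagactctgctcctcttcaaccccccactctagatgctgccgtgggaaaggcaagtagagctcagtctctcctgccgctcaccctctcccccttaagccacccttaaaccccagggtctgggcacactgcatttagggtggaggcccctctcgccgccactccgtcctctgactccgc
They lie at chr10:28814348-28814597 (minus strand) for Adra1b, chr3:139262332-139262581 (minus strand) for Adra1d and chr4:65982200-65982449 (plus strand) for Chrm2. The G and C content was 70.8% for Adra1b, 64% for Adra1d and 62% for Chrm2, against a median of 51.2% over 33469 promoters of the same length. CpG pairs numbered 23 in Adra1b, 16 in Adra1d and 9 in Chrm2, against a median of 5.

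Of all 33469 promoters, 65.5% held an E-box and 30.5% a GC box. The remaining motifs searched, on both strands, were the CRE core TGACG, in 18.2% of promoters, the TATA box TATAAA, in 12.9%, and the GATA motif AGATAA, in 10.3%. None of these last 3 was found in the window of Adra1b, Adra1d or Chrm2. The window of Adrb1 held 1 CRE core, and that of Chrm3 held 3 E-boxes, 1 GC box and 1 CRE core. The window of Adora1 held 1 E-box. The CRE core of Chrm3 overlaps 1 of its E-boxes.

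Between 58.6% and 79.8% of probes were well above background on an array, and no spot was saturated. The arrays lay on 3 slides of 2 rows, each slide holding several regions. Regions were spread unevenly over the rows, with 3 of 4 LA arrays in row 1 and 3 of 4 SA and 3 of 4 PV arrays in row 2. The share of probes well above background was 72.7% to 79.8% in row 1 and 58.6% to 69.4% in row 2. Markers of cardiac myocytes (4 of 5 listed genes measured) had a summed normalised signal of 127220 to 189460 in PA and of at least 1106100 on every array of the other regions. The 5 atrial myocyte markers summed to 1286600 to 1758100 in PV and to 1373200 to 1673600 in LA. The PV samples, though named as a vessel, thus carried atrial muscle signal at the level of LA. The 6 smooth muscle markers summed to 477570 to 566770 in PA and to at most 69358 elsewhere. The 5 pacemaker markers summed to 6930 to 8000 in SA and to at most 6312 in the other regions, but of these Tbx18 had its highest mean in PA (12.23, against 10.18 in SA). Shox2, a transcription factor of the pacemaker, did not rise well above background on an LV or RV array. In tissue pieces of this kind, fewer cells of a type and less RNA per cell cannot be told apart.

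Signals are given as log2(normalised signal + 1), so that 1 unit is a 2-fold difference, and as mean ± SD over the arrays of a region. Because probes differ in efficiency, levels are compared between regions for 1 gene and never between genes. Differences were tested with limma over 16089 genes, and adjusted p-values are Benjamini-Hochberg values over all of them. Of the 9 receptors, 7 differed among the 6 regions by the moderated F-test at an adjusted p below 0.05, where 64.4% of all genes tested did. Chrm3 (adjusted p = 0.206, with probes that differed, as given below for that gene) and Adora1 (adjusted p = 0.678) did not pass, and Adrb1 passed narrowly (adjusted p = 0.0423).

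**Figure D1:**
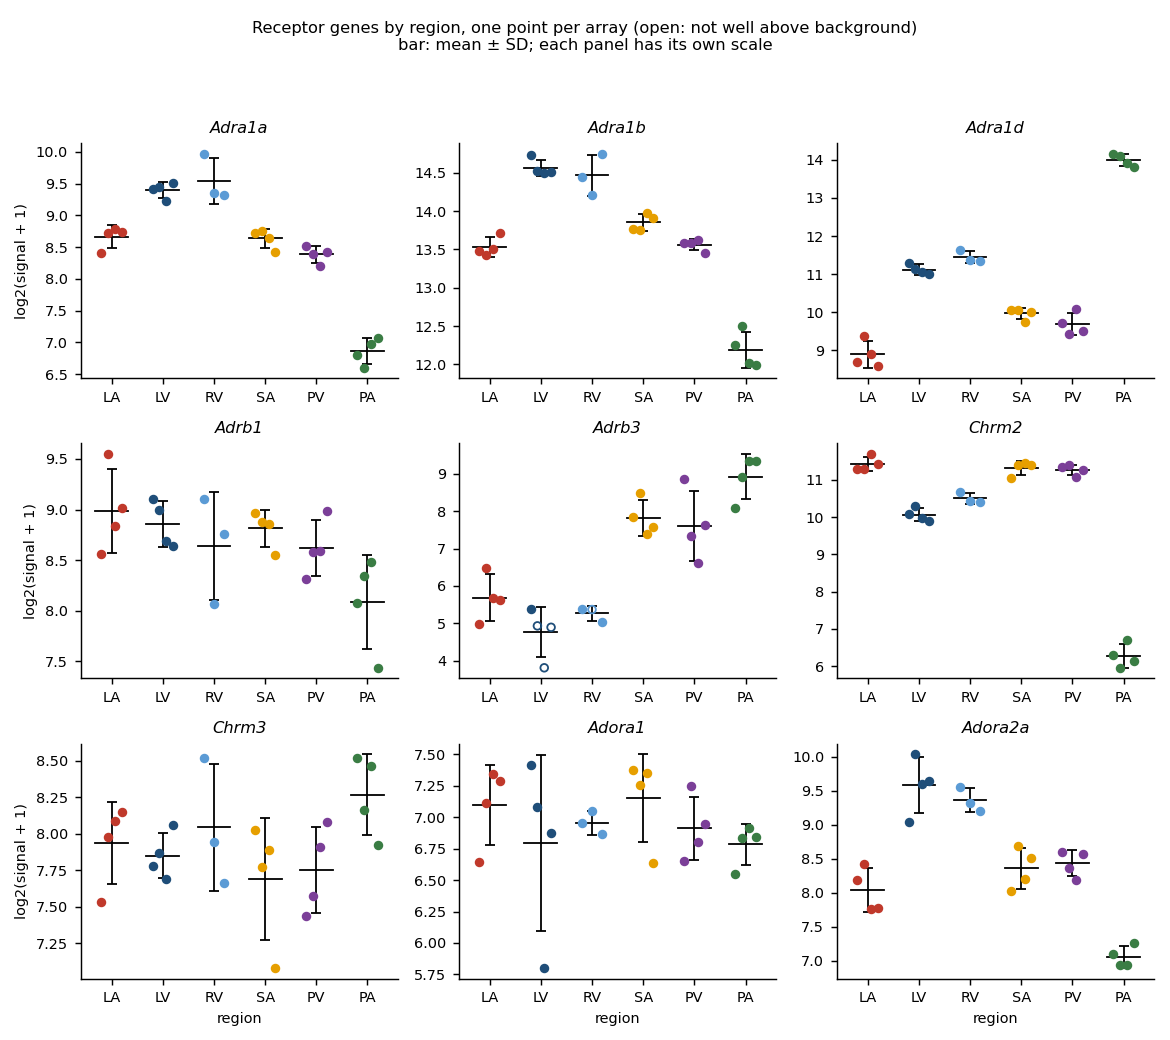
Signal of each receptor gene by region; the vertical axis is log2(normalised signal + 1), each point is 1 array, open points are not well above background, and bars give the mean ± SD. The highest points of Adra1d and the lowest of Chrm2 are those of PA, and the points of Adora1 overlap across the 6 regions.

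Among the alpha1 adrenoceptors, Adra1d, a receptor that contracts large arteries, spanned 5.10 log2 units between its lowest and highest regional means, the widest span of the 9 genes after that of Chrm2 (5.15). It read 14.14, 14.11, 13.91 and 13.82 on the 4 PA arrays, and 11.64, 11.36 and 11.36 on the RV arrays. In LV it read 11.30, 11.15, 11.05 and 10.99, in SA 10.06, 10.06, 9.74 and 10.00, in PV 9.73, 9.42, 10.07 and 9.51, and in LA 8.70, 9.39, 8.89 and 8.59. PA was thus above every other array, the ventricular arrays were above all SA, PV and LA arrays, and LA was lowest with no overlap with the PV and SA arrays.

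The Adra1d signal in PA exceeded the mean of the other 5 regions by 3.77 ± 0.12 (SE), a 13.7-fold difference (adjusted p = 1.04e-15). LA was below the ventricles by 2.39 ± 0.14, or 5.26-fold (adjusted p = 1.44e-10). SA lay between them, 2.11-fold above LA (adjusted p = 0.000132) and 2.50-fold below the ventricles (adjusted p = 6.65e-07). PV exceeded LA 1.73-fold (adjusted p = 0.00223), and this call was lost when only the PV and LA arrays entered the fit (adjusted p = 0.0648). In the order of its levels, PA, RV, LV, SA, PV and LA, the neighbours RV and LV (difference 0.33, adjusted p = 0.520, arrays not overlapping) and the neighbours SA and PV (adjusted p = 0.411) did not pass.

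Adra1b, the alpha1B receptor and a major alpha1 subtype of rat cardiac myocytes, was highest in the ventricles. It read 14.73, 14.52, 14.50 and 14.52 in LV, 14.44, 14.21 and 14.74 in RV, and 13.77, 13.75, 13.98 and 13.90 in SA. It read 13.59, 13.59, 13.62 and 13.46 in PV, 13.48, 13.43, 13.50 and 13.72 in LA, and 12.25, 12.50, 12.02 and 11.996 in PA. Every ventricular array was above every array of the other regions, every PA array was below them, and LA and PV overlapped.

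PA was 3.49-fold below the mean of the other regions for Adra1b (difference -1.80 ± 0.09, adjusted p = 8.85e-13). LA was 1.98-fold below the ventricles (adjusted p = 4.28e-07) and SA was 1.58-fold below them (adjusted p = 6.50e-05). SA and LA did not overlap but their difference of 0.32 ± 0.12 did not pass (adjusted p = 0.0767). That difference passed with the slide as a block (adjusted p = 0.0230), with a trend in the prior variance (adjusted p = 0.0492), without LA replicate 4 (0.38, adjusted p = 0.0463) and without PA replicate 2 (adjusted p = 0.0482).

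Adra1a, the alpha1A receptor, which is shared by cardiac muscle and small arteries, was likewise highest in the ventricles and lowest in PA. It read 9.42, 9.44, 9.23 and 9.51 in LV, 9.97, 9.35 and 9.32 in RV, and 8.40, 8.73, 8.79 and 8.74 in LA. It read 8.72, 8.75, 8.65 and 8.43 in SA, 8.52, 8.40, 8.20 and 8.42 in PV, and 6.80, 6.60, 6.97 and 7.07 in PA. The ventricular arrays lay above all others, and LA, SA and PV overlapped.

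LA was below the ventricles in Adra1a by 0.81 ± 0.12, or 1.75-fold (adjusted p = 3.67e-05), and SA was 1.78-fold below them (adjusted p = 3.27e-05). PA was below the mean of the other regions on each probe, by an amount that depended on the probe. The levels above are those of the brightest probe, which was a different one in PA, so their PA values cannot be set against the rest and the difference is given by probe. The probe brightest on all 19 arrays outside PA gave -2.35 (adjusted p = 1.93e-13). The probe that was brightest on the 4 PA arrays, designed on a predicted transcript, gave -0.68 (adjusted p = 8.01e-05). Its arrays in PA (6.86 ± 0.21) overlapped with those of LA (7.01 ± 0.20), PV (6.96 ± 0.16) and SA (7.36 ± 0.32). The dimmest probe was not well above background on any PA array, and was at least 4.73-fold lower there (adjusted p = 6.98e-13). All 3 probes were lower in LA than in the ventricles, by 0.81 to 1.17.

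**Figure D2:**
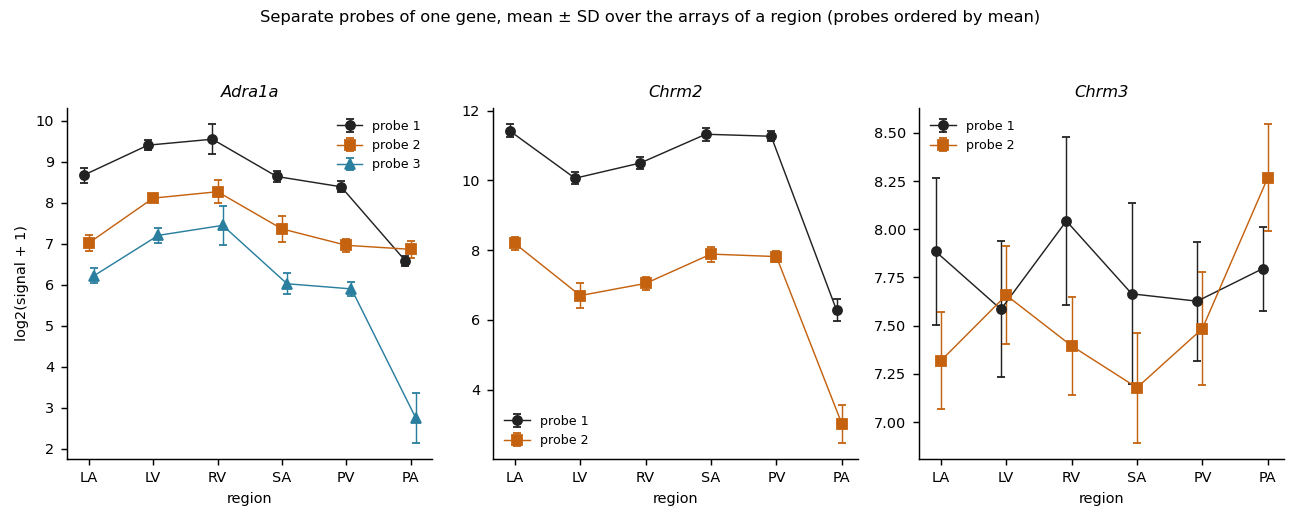
Separate probes of Adra1a, Chrm2 and Chrm3 by region; points are means of log2(normalised signal + 1) and bars the SD over the arrays of a region. The probes of Chrm2 run in parallel, 1 probe of Adra1a falls in PA less than the other 2, and the probes of Chrm3 part in PA.

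The beta adrenoceptors differed from each other in their spread. Adrb3, the beta3 receptor, best known from brown and white fat, read 8.09, 8.92, 9.36 and 9.36 in PA, 7.85, 8.49, 7.38 and 7.58 in SA, and 8.85, 7.33, 6.61 and 7.62 in PV. It read 4.98, 6.49, 5.68 and 5.61 in LA, 5.39, 5.37 and 5.04 in RV, and 5.39, 4.93, 3.81 and 4.89 in LV. The PA, SA and PV arrays overlapped with each other and lay above every array of LA, RV and LV. In LV only 1 of 4 arrays, and in RV 2 of 3, were well above background. The limit differed between arrays, so these counts do not follow the signal alone. RV replicate 2, in row 2, fell short of it at a normalised signal of 40.3, and RV replicate 3, in row 1, passed it at 31.8.

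SA exceeded LA in Adrb3 by 2.14 ± 0.43, or 4.40-fold (adjusted p = 0.00223), and exceeded the ventricles by a fitted 2.82 (adjusted p = 1.38e-05), the size of which is uncertain because 4 of the 7 ventricular arrays were not well above background. PV exceeded LA 3.77-fold (adjusted p = 0.00546), a call that was lost when only these 8 arrays were fitted (adjusted p = 0.0603). PA exceeded the mean of the other regions, those ventricular arrays included, by a fitted 2.70 (adjusted p = 7.28e-07). In a further fit, a choice made after the data were seen, signals below the array's lowest signal well above background were raised to it. Of the 4 dim ventricular arrays, this moved only LV replicate 3 (normalised signal 13 to 14.6) and LV replicate 4 (28.7 to 31.1). LV replicate 2 (29.5) and RV replicate 2 (40.3) already lay above these values of their arrays (24.8 and 23.5) and stayed unchanged. The difference between SA and the ventricles was then 2.78 in place of 2.82. Because the signals hardly moved, this fit cannot settle the size of the difference. Under normexp background correction of the scanner signals, also added after the data were seen, the calls held but the differences were smaller, 1.54 for SA and the ventricles, 1.48 in place of 2.14 for SA and LA, 1.23 in place of 1.91 for PV and LA, and 1.75 in place of 2.70 for PA and the other regions. PA and SA, neighbours in the order of levels, differed by 1.105 (adjusted p = 0.0385) with overlapping arrays, in a comparison where 53.6% of all genes differed, and SA and PV did not differ beyond their spread.

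The fat markers Ucp1 and Adipoq, though not all markers of fat, were high in the same regions as Adrb3. Ucp1, the uncoupling protein of brown fat, read 11.15 to 13.60 in SA, 11.14 to 13.32 in PA and 8.16 to 12.42 in PV, and 3.86 to 7.35 in LA, 3.52 to 4.81 in LV and 3.38 to 5.04 in RV. Adipoq, which encodes the fat cell hormone adiponectin, read 9.01 to 10.26 in SA, 10.66 to 11.63 in PA and 8.38 to 10.88 in PV, against 6.82 to 9.06 in LA, 4.79 to 7.79 in RV and 3.02 to 4.77 in LV. For both genes, as for Adrb3, the LV arrays lay below every SA, PV and PA array.

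Summed over the 4 brown adipocyte markers, the normalised signal was 11224 to 21096 in SA, 7995 to 16186 in PV, 5228 to 13881 in PA, 9061 to 11341 in LA, 6305 to 7074 in RV and 4685 to 6641 in LV. Of these markers, Cidea and Ppargc1a were well above background on every array of all regions, and both had their lowest mean in PA. Cidea read 11.60 ± 0.12 there, against 12.28 to 13.22 for the other region means, and Ppargc1a 6.79 ± 0.20, against 9.35 to 9.82. Elovl3 was well above background on no array of LA, RV or PV. The 4 adipocyte markers measured, of 5 listed, summed to 7387 to 11941 in PA, 2736 to 9522 in PV, 3362 to 7785 in SA, 4027 to 8588 in LA, 3649 to 5956 in RV and 3436 to 4503 in LV. Lep, which encodes leptin, was highest in PA (8.44 ± 0.32) and PV (7.17 ± 1.03) but lowest in SA (5.21 ± 0.47), and the region means of Cfd lay between 11.90 and 12.68. None of the LV arrays had Adipoq well above background, and none of the RV arrays Cidec. The part of these cells in the Adrb3 result was not tested.

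**Figure D3:**
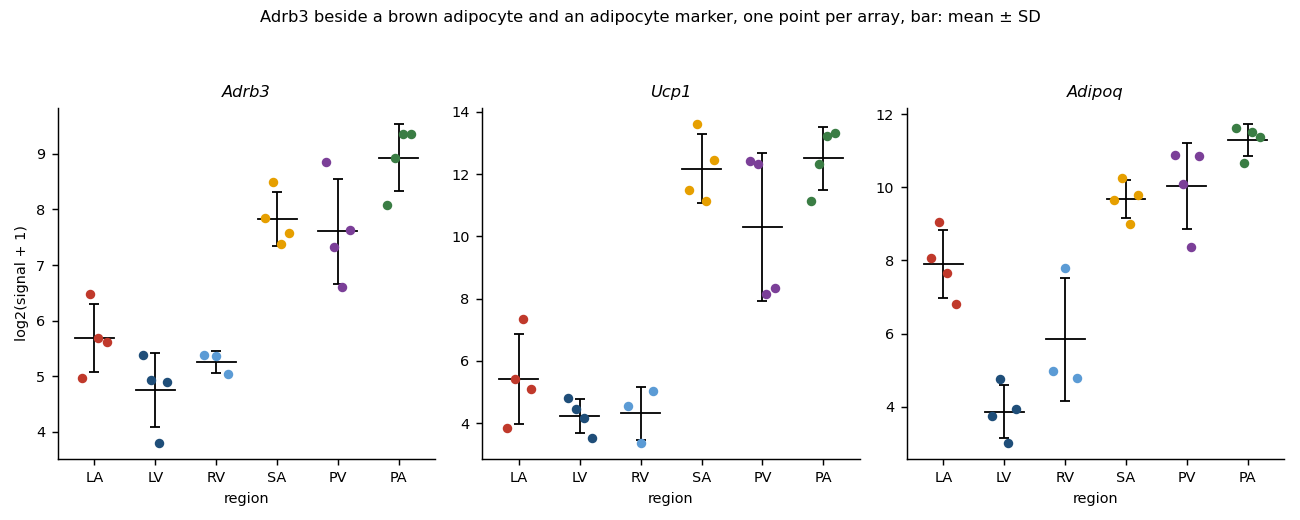
Adrb3, Ucp1 and Adipoq by region; the vertical axis is log2(normalised signal + 1), each point is 1 array and bars give the mean ± SD. All 3 genes have their highest means in SA, PV and PA and their lowest in LV.

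Adrb1, the beta1 receptor and the main beta subtype of the myocardium, was nearly level across the heart. Its means were 8.99 ± 0.42 in LA, 8.86 ± 0.23 in LV, 8.81 ± 0.18 in SA, 8.64 ± 0.53 in RV, 8.62 ± 0.28 in PV and 8.08 ± 0.46 in PA. The arrays of the other 5 regions overlapped, the PA arrays (7.43 to 8.48) overlapped with those of RV and PV, and no pair of neighbours in this order passed. The neighbours PV and PA differed by 0.53, with a 95% interval from 0.01 to 1.05 (limma contrast, adjusted p = 0.0795).

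PA was 1.62-fold below the mean of the other regions in Adrb1 (difference -0.70 ± 0.19, adjusted p = 0.00381). Between SA and LA the 95% interval of the difference ran from -0.70 to 0.34, and between LA and the ventricles from -0.22 to 0.70. The test over all 6 regions no longer passed when any of 14 arrays was left out (adjusted p from 0.0503 to 0.171, the highest without PA replicate 4), with the row of the slide as a block (adjusted p = 0.0520) or with the replicate number as a block (adjusted p = 0.0684).

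Among the muscarinic receptors, Chrm2, the receptor of vagal slowing in atrium and node, showed the largest difference of the 9 genes between PA and the other regions. It read 11.30, 11.29, 11.69 and 11.42 in LA, 11.05, 11.40, 11.45 and 11.40 in SA, and 11.34, 11.40, 11.08 and 11.26 in PV. It read 10.68, 10.43 and 10.39 in RV, 10.08, 10.29, 9.98 and 9.90 in LV, and 6.30, 5.96, 6.71 and 6.14 in PA. The LA, SA and PV arrays overlapped and lay above all ventricular arrays, RV lay above LV without overlap, and PA lay below all of them.

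The Chrm2 signal was 2.21-fold higher in LA than in the ventricles (difference 1.14 ± 0.13, adjusted p = 8.87e-07) and 2.06-fold higher in SA (adjusted p = 3.91e-06). SA and LA differed by -0.10, with a 95% interval from -0.40 to 0.20 (adjusted p = 0.723). RV exceeded LV by 0.44 ± 0.16, which did not pass (adjusted p = 0.263). PA was 24.9-fold below the mean of the other regions (difference -4.64 ± 0.11, adjusted p = 1.44e-17), and the difference was -3.53 under normexp background correction, where the call held.

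The second probe of Chrm2 gave the same directions, 1.32 for LA against the ventricles (adjusted p = 3.43e-05) and 1.02 for SA against them (adjusted p = 0.000729). It was not well above background on any PA array and was at least 9.27-fold lower there (adjusted p = 1.22e-14). Beside the low Chrm2 signal of PA stand the low cardiac myocyte markers given above, and their part in the result was not tested.

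Chrm3, the M3 receptor of smooth muscle, endothelium and glands, was read by 2 probes of like brightness, and which of them was brighter differed between regions, so its levels are given by probe. On the first, the means were 8.04 ± 0.44 in RV, 7.89 ± 0.38 in LA, 7.80 ± 0.22 in PA, 7.67 ± 0.47 in SA, 7.63 ± 0.31 in PV and 7.58 ± 0.35 in LV. On the second, they were 8.27 ± 0.28 in PA, 7.66 ± 0.25 in LV, 7.48 ± 0.29 in PV, 7.40 ± 0.25 in RV, 7.32 ± 0.25 in LA and 7.18 ± 0.29 in SA. PA thus led on the second probe alone.

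With the brighter probe of each array, the value used in the counts over the 9 receptors, PA exceeded the mean of the other regions in Chrm3 by 0.41 ± 0.17 (adjusted p = 0.0435), a value that sets different probes against each other. Both this call and that over the 6 regions depended on the probe. The second probe, brighter on the 4 PA arrays, gave 0.86 (adjusted p = 5.39e-05) and passed over the 6 regions (adjusted p = 0.000915), and the first, brighter on 13 of the 19 remaining arrays, gave 0.03 (adjusted p = 0.905) and did not pass over them (adjusted p = 0.623). The call in PA was also lost under quantile normalisation (adjusted p = 0.0805), with the slide (adjusted p = 0.0654) or the replicate number (adjusted p = 0.0640) as a block, and when any of 11 arrays was left out (adjusted p from 0.0514 to 0.161, the highest without PA replicate 1).

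Among the adenosine receptors, Adora2a, which dilates coronary vessels, was highest in the ventricles. It read 9.05, 10.04, 9.60 and 9.65 in LV, 9.56, 9.31 and 9.21 in RV, and 8.60, 8.37, 8.19 and 8.57 in PV. It read 8.02, 8.70, 8.21 and 8.52 in SA, 8.18, 8.42, 7.76 and 7.77 in LA, and 7.09, 6.93, 6.93 and 7.26 in PA. The ventricular arrays lay above all others, PA lay below all others, and PV, SA and LA overlapped.

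LA was 2.71-fold below the ventricles in Adora2a (difference -1.44 ± 0.17, adjusted p = 2.01e-06), and SA was 2.16-fold below them (adjusted p = 5.56e-05). PA was 3.25-fold below the mean of the other regions (adjusted p = 5.38e-09). SA exceeded LA by 0.33 ± 0.19, which did not pass (adjusted p = 0.309). The summed signal of the 5 endothelial markers was also highest in the ventricles, at 77145 to 81739 in LV and 66461 to 71731 in RV against at most 50835 elsewhere. Singly, Cdh5, Kdr and Vwf had their highest means in LV and RV, whereas Pecam1 was highest in LA (13.51, against 13.42 in LV and 13.37 in RV) and Tek was higher in LA (12.98) than in RV (12.73). All 5 were well above background on every array, and their part in the result was not tested.

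Adora1, the A1 receptor, which slows the node and opens the same potassium channel as the M2 receptor, passed in none of the comparisons. Its means were 7.15 ± 0.35 in SA, 7.10 ± 0.32 in LA, 6.96 ± 0.09 in RV, 6.91 ± 0.25 in PV, 6.79 ± 0.70 in LV and 6.79 ± 0.16 in PA. The arrays of all regions overlapped. The 95% interval of the difference between SA and LA ran from -0.48 to 0.60, and that between LA and the ventricles from -0.26 to 0.70.

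Taken by comparison, 5 of the 9 receptors differed between LA and the ventricles, 1 higher in LA (Chrm2) and 4 lower (Adra1a, Adra1b, Adra1d and Adora2a), where 35.4% of all genes tested did (16.9% higher and 18.4% lower). The median difference of the 9 was -0.01 against -0.09 over all genes. Between SA and the ventricles 6 of 9 differed, against 28.1% of all genes (12.3% higher and 15.8% lower), and Adrb3 and Chrm2 were the 2 higher in SA. Between SA and LA 2 of 9 differed, Adra1d and Adrb3, both higher in SA, against 15.3% of all genes (7.03% higher).

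The same 2 genes were higher in PV than in LA, where 13.5% of all genes differed and 6.99% were higher, but SA versus LA and PV versus LA share the LA arrays. No receptor differed between PV and SA, where 3.49% of genes did, or between LV and RV, where 0.522% did. At an unadjusted p below 0.05, Chrm2 differed between LV and RV and Adra1b between PV and SA. In the fit of LA, the ventricles as 1 group and SA alone, 6 of 9 receptors differed, against 40.5% of 15809 genes.

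In PA against the mean of the other regions 8 of 9 receptors differed, 3 higher (Adra1d, Adrb3 and Chrm3) and 5 lower (Chrm2, Adra1a, Adra1b, Adora2a and Adrb1), where 59.1% of all genes differed (31.4% higher and 27.7% lower). For Adra1a and Chrm3 this comparison sets different probes against each other, and on 1 of its 2 probes Chrm3 was not higher by the test. The median of the 9 was -0.70 against 0.05 over all genes. Over the 15 pairs of regions, 13 passed for Adra1d, 11 each for Adra1a Adra1b, Adrb3, Chrm2 and Adora2a, 3 for Adrb1 and at most 1 for Chrm3 and Adora1 (for Adra1a and Chrm3 with the brightest probe of each array), where 31.2% of the tests of all genes over these pairs did. All called differences kept their direction within each slide and within each row that held arrays of both sides, in 69 of 69 and 46 of 46 values. Their sizes could differ between rows. For Adrb3, SA minus LA was 3.07 in row 1 (1 SA and 3 LA arrays) and 1.12 in row 2 (3 SA and 1 LA array). For Adra1d it was 1.33 and 0.55, and both calls held with the row as a block.

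**Figure D4:**
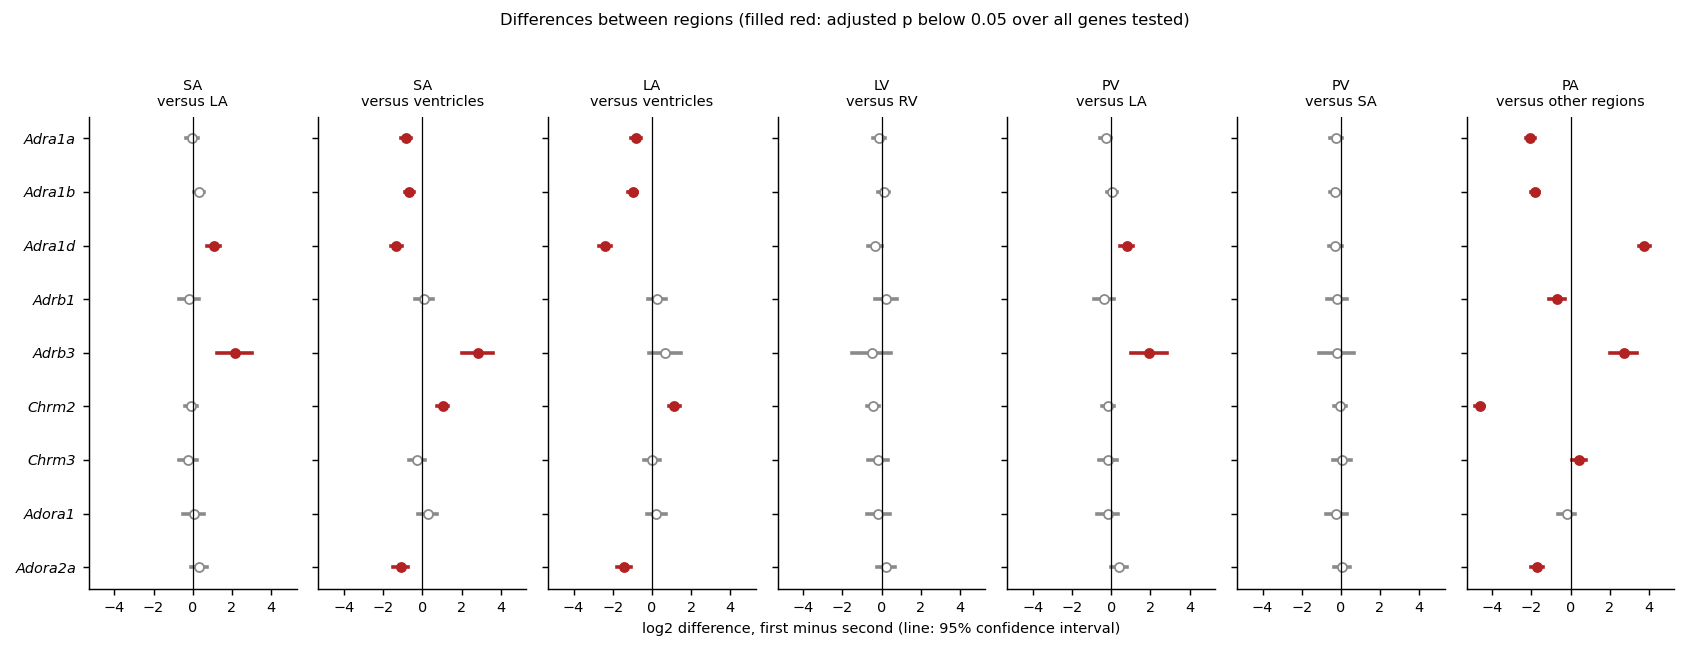
Differences of the 9 receptors in the 7 comparisons; the horizontal axis is the log2 difference, first region minus second, lines are 95% confidence intervals and filled red points have an adjusted p below 0.05 over all genes tested. PA against the other regions has 8 filled points, of which those of Adra1a and Chrm3 set different probes against each other, and PV against SA and LV against RV have none.

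For a region specificity without a test, each gene's mean log2 signals in LA, the ventricles and SA were scaled so that their squares sum to 1, and 1 stands for signal in 1 region alone. The largest value of the 9 receptors was that of Adrb3 in SA, 0.719, at percentile 99.5 of 15809 genes. Adra1d reached 0.645 in the ventricles (percentile 96.6) and Adora2a reached 0.633 there (percentile 94.9). Chrm2 reached 0.599 in LA (percentile 89.3) and 0.594 in SA. The values of Adora1 stayed between 0.563 and 0.587 in all 3 regions.

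Genes of signalling by these transmitters, from other receptors and transmitter turnover to G proteins, effectors and kinases, were followed in 10 lists of 104 genes, of which 102 were tested. Between LA and the ventricles 16 were higher and 26 lower in LA (41.2% of them, against 35.4% of all genes). Both subunits of the acetylcholine-activated potassium channel, the target of the M2 and A1 receptors, were higher in LA, Kcnj3 by 2.63 ± 0.18 (adjusted p = 1.27e-09) and Kcnj5 by 2.56 ± 0.31 (adjusted p = 2.23e-06). They were also higher in SA than in the ventricles, by 2.49 and 2.12, and neither passed between SA and LA. Kcnj3 read 12.55 to 13.20 in LA, 12.62 to 12.97 in SA and 12.21 to 12.60 in PV, against 9.73 to 10.02 in LV, 10.40 to 11.17 in RV and 6.57 to 7.62 in PA. The channel and Chrm2 thus had the same regions on their high side, LA, SA and PV.

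Of 11 G protein alpha subunits, 1 was higher and 3 were lower in LA than in the ventricles. Gnao1, which encodes the Go subunit, was higher by 1.63 ± 0.12 (adjusted p = 4.10e-09), and was higher again in SA than in LA by 1.32 (adjusted p = 3.69e-06). Gna12 was lower in LA by 0.41 and Gnai2 by 0.23. Of 15 phosphodiesterases, which break down cyclic nucleotides, 1 was higher and 3 were lower in LA. Pde7a was 3.14 higher (adjusted p = 7.10e-12), and Pde8b and Pde4c were lower by 1.49 and 0.86.

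Of 9 adenylyl cyclases, which make cyclic AMP, 1 was higher and 1 lower in LA, the lower being Adcy9 (difference -1.20, adjusted p = 2.95e-08). Of 19 receptor kinases, arrestins and RGS proteins, which end receptor signals, 4 were higher and 8 lower. Arrb1 (beta-arrestin 1) was higher by 1.20 and Rgs2 by 1.05, and Rgs5 was lower by 1.5 and Rgs4 by 0.88. All 3 protein kinase A subunits that differed, of 6, were lower in LA, Prkar1b by 0.61 and Prkacb by 0.28 among them. The 2 that differed of 7 phospholipase C beta and IP3 receptor genes were higher, Itpr1 by 1.29 and Plcb4 by 0.35.

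Of the other receptors of the 3 families, 8 were tested; 1 was higher and 3 were lower in LA than in the ventricles. Adora2b, a further adenosine receptor, was lower by 1.16 (adjusted p = 0.00534). Of 15 genes of transmitter synthesis and removal tested, 2 were higher and 2 lower. Ache, which encodes acetylcholinesterase, was higher in LA than in the ventricles by 1.32 (adjusted p = 0.00262) and lower in SA than in LA by 1.92 (adjusted p = 0.00108). Of 10 genes that form or remove adenosine, 2 were higher and 3 lower in LA, with Ada, adenosine deaminase, lower by 1.43 (adjusted p = 1.06e-08) and Enpp1 higher by 0.65.

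In PA against the other regions 41 of these 102 genes were higher and 33 lower (72.5%, against 59.1% of all genes). Kcnj3 was lower by 4.56 ± 0.16. Kcnj5 was also lower (adjusted p = 1.64e-15), with 5.39 ± 1.17 in PA against region means of 12.02 to 14.66, and since only 2 of 4 PA arrays were well above background for it, the size of its difference is uncertain. The phosphodiesterases split, with 6 higher and 5 lower. Pde5a, the cyclic GMP phosphodiesterase of vascular smooth muscle, was higher by 4.98 ± 0.15 (adjusted p = 3.73e-16) and Pde2a was lower by 3.43. Pde8b was not well above background on any PA array and was at least 5.14-fold lower there (adjusted p = 1.00e-11).

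All 5 adenylyl cyclases that differed, of 9, were higher in PA, with Adcy7 (well above background on 1 of 4 SA arrays and on all arrays elsewhere) at 1.51 and Adcy5 at 1.43. Of the 7 phospholipase C beta and IP3 receptor genes, which lie downstream of the alpha1 receptors, 5 were higher in PA and 2 lower. Itpr1 was higher by 2.09 and Plcb1 by 1.93. Rgs2, which curbs Gq signals, was higher by 2.41 and Rgs10 by 1.88, and Rgs6, known for curbing the M2 receptor, was lower by 2.71. Prkar2b was higher by 3.20 and Prkaca lower by 1.22. Adra2b, an alpha2 receptor, was lower by 1.32 (adjusted p = 3.17e-07). Adra2a and Chrm1 were higher in PA, with fitted differences of 1.71 (adjusted p = 5.79e-06) and 1.52 (adjusted p = 3.65e-05), but of the 19 arrays outside PA only 6 were well above background for Adra2a, none of them ventricular, and 10 for Chrm1, so the sizes rest partly on signals near the limit of detection.

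**Figure D5:**
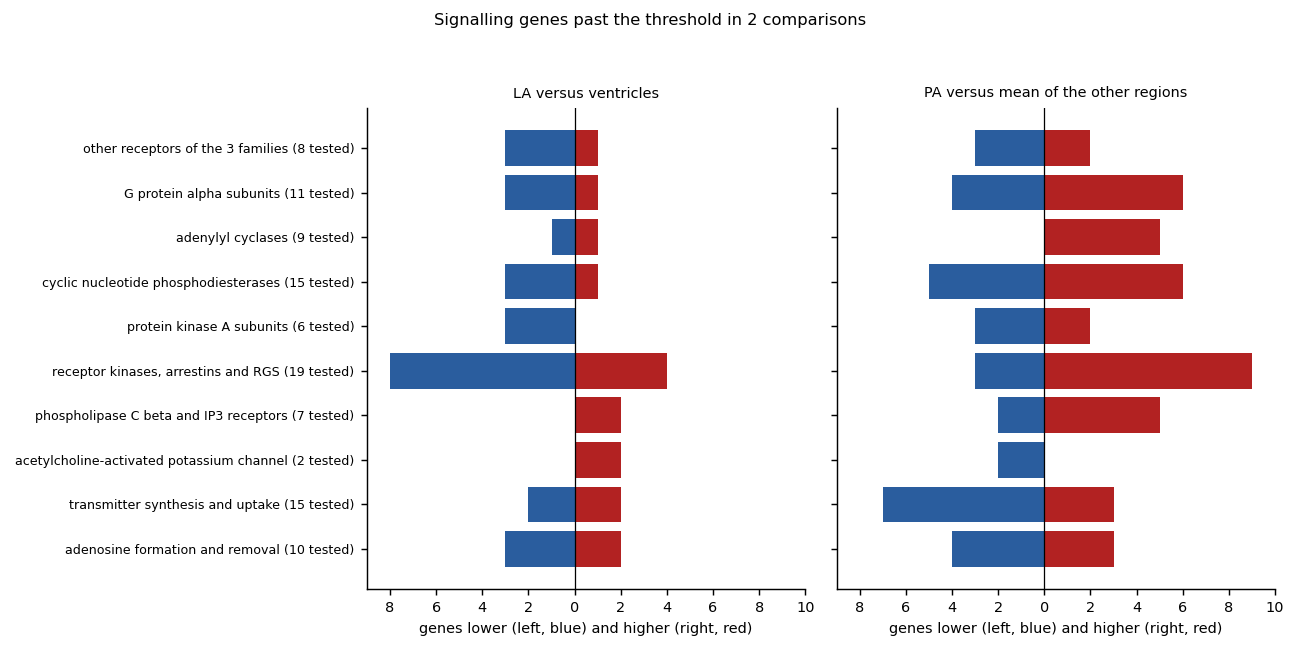
Genes of 10 signalling lists past the threshold in LA against the ventricles (left) and PA against the mean of the other regions (right); bars to the right count genes higher in the first region and bars to the left genes lower in it. Adenylyl cyclases have bars on the higher side alone in PA, and protein kinase A subunits on the lower side alone in LA.

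In SA against LA 10 of the 102 genes were higher and 7 lower (16.7%, against 15.3% of all genes), and in PV against LA 12 were higher and 5 lower (16.7%, against 13.5%). Beside Gnao1, SA exceeded LA in Slc22a3, an uptake transporter for monoamines (1.35, adjusted p = 5.81e-05), Ddc (0.91), Rgs5 (0.84) and Ada (0.71). Rgs2 was lower in SA by 1.26 and in PV by 1.15. Between PV and SA 7 were higher and 4 lower (10.8%, against 3.49%), and between LV and RV Ddc alone passed, 0.90 higher in LV.

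As a description over the 23 arrays, whose values are dominated by the region means, the receptors fell into few patterns. Adra1a and Chrm3, whose values come from different probes in different regions, are left out. Adra1b and Adora2a had a Pearson correlation of 0.898. Adra1d and Chrm2 ran opposite to each other (-0.945). Among 13099 candidate genes, those most like Adra1d were Wfdc1 (0.986), Fzd1 (0.964) and Pth1r (0.957). Those most like Chrm2 were Inhca (0.993), Atp6ap1l (0.993) and Slc22a23 (0.992), and those most like Adrb3 were Slc36a2 (0.954), Thrsp (0.942) and Gys2 (0.942).

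The genes most like Adra1b included Gpr137 (0.989) and Phb2 (0.987). Those most like Adora2a included Sh2d3c (0.962) and Kank3 (0.959). For Adrb1 and Adora1, with small regional differences, the best correlations were lower, 0.875 for Adrb1 with Cwc25 and 0.807 for Adora1 with Mchr1.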

How the data were processed

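RNA of 23 tissue samples was labelled with Cy3 and hybridised to Agilent SurePrint rat arrays. Per the file headers and the submitters' processing notes, spots were read with Agilent Feature Extraction 11.0.1.1, which gives each spot a background-subtracted signal intensity on a linear scale. The deposited normalized intensity is this signal after replicate spots were averaged and each array was rescaled (by 0.881 to 1.52 here) to a common 90th percentile; between 99.6% and 99.8% of probes of an array lay within 2% of that product. The deposited values were used for all main results and the scanner intensities for alternatives. The number of arrays, not read depth, limits the precision.

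Of the probes, 156 with a missing value were removed, 45440 remained and 21047 were named through RefSeq accessions. Per array, a gene took the value of its brightest probe, so the probe can differ between arrays, and log2(value + 1) was formed. Genes above 4 on at least 1 array were tested with limma 3.58.1 in R 4.3.3, with the 23 arrays in 1 fit of 6 region means; the moderated F-test on 15 arrays compared LA, V (LV and RV) and SA. The ventricles are the mean of LV and RV. Fits were tested on simulated data. The 9 receptors, the lists and the tests were chosen with earlier results of these data known. From each signalling list the text names, per comparison, up to 2 genes in each direction with the largest difference, among genes that passed, whose groups did not overlap and whose higher group was well above background throughout; the genes most like a receptor are the 3 with the highest Pearson correlation. A few genes that these rules name are not reported here. The array ranges of Kcnj3, Ucp1 and Adipoq were chosen for display after their values were seen. Alternatives were the scaling, the probe rule, the filter, the pseudocount, blocks for slide, row and replicate number, each array left out, and fits of only the arrays compared. Of 104 genes in the signalling lists, 102 were tested here. Figures were drawn with matplotlib 3.10.9.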

Additional observations from a re-analysis of the deposited data

Results flagged for a closer look

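In each region with 4 arrays, the highest and the lowest array of each receptor were compared with the rest by Dixon's gap ratio at its 95% limit, in 45 groups, of which chance alone would mark about 1 in 20. An array stood apart in 4 of them. Adra1a in LA replicate 1 read 8.40 where the other LA arrays read 8.73 to 8.79. Adra1b in LV replicate 1 read 14.73, and the other LV arrays 14.50 to 14.52. Chrm2 in SA replicate 1 read 11.05, and the other SA arrays 11.40 to 11.45. Adora1 in SA replicate 4 read 6.64, and the other SA arrays 7.25 to 7.37. None of these arrays changed a call on its own gene, in the 7 comparisons or the tests over regions, when it was left out.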

How the results depend on the processing

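Of the 23 called differences of the receptors, 20 kept their direction and their side of the threshold under every alternative run, and of the 40 not called, 21 did. The count of receptors differing between PV and LA went from 2 to 0 with only the arrays compared. With single arrays left out, the counts stayed between 6 and 7 over the 6 regions, 2 and 3 for SA versus LA, and 7 and 8 for PA. The Adrb1 test over 6 regions was lost without LA replicates 2, 3 or 4, LV 1 or 2, PA 1, 2 or 4, PV 2 or 3, RV 3, or SA 1, 2 or 3 (adjusted p 0.0503 to 0.171). The Chrm3 call in PA was lost without LA replicate 1, LV 1, 2 or 3, PA 1, 2 or 3, PV 1 or 2, or RV 2 or 3 (0.33 to 0.45), and with the probe of highest mean was 0.034.

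Differences that changed sign were all uncalled. With normexp on median signals, added after the data were seen, SA minus LA was 0.023 for Adra1a, PV minus LA was -0.072 for Adra1b, 0.039 for Adora1 and 0.00033 for Chrm3, PV minus SA was -0.026 for Adora2a and LV minus RV was 0.0135 for Adrb3. LA minus ventricles of Chrm3 was 0.020 at the 75th percentile, 0.073 under quantile normalisation and 0.071 with the probe of highest mean, where PV minus SA was -0.038. With the slide as a block, SA minus LA was -0.036 for Adora1. With single arrays left out, SA minus LA ran from -0.12 to 0.038 for Adra1a, from -0.32 to 0.0096 for Adrb1, from -0.093 to 0.23 for Adora1. SA minus ventricles ran from -0.082 to 0.18 for Adrb1. LA minus ventricles ran from -0.10 to 0.13 for Chrm3. LV minus RV ran from -0.26 to 0.065 for Adra1a, from -0.028 to 0.24 for Adra1b, from -0.074 to 0.45 for Adrb1, from -0.38 to 0.045 for Chrm3, from -0.37 to 0.17 for Adora1. PV minus LA ran from -0.0053 to 0.093 for Adra1b. PV minus SA ran from -0.64 to 0.11 for Adrb3, from -0.15 to 0.0055 for Chrm2, from -0.14 to 0.17 for Chrm3, from -0.042 to 0.18 for Adora2a.

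Same-numbered arrays did not deviate together (correlations of deviations from -0.38 to 0.34, 12 of 55 above 0.1, against 52 of 165 for different numbers, and 4 of 23 arrays closest to their own number). Arrays of 1 slide did (median 0.106, 38 of 71 pairs above 0.1, against -0.061 and 26 of 149 for different slides), as did arrays of 1 row (0.0853 and 50 of 107, against -0.101 and 14 of 113). The replicate number was therefore not taken as a pairing. Beside these slide and row deviations, the check cannot show that samples are unpaired. As a block the replicate number ended the Adrb1 test over 6 regions (adjusted p = 0.0684) and the Chrm3 call in PA (0.42, adjusted p = 0.0640) and changed no other call. Over all genes, the count between LV and RV went from 84 to 137 when dim genes were filtered out, 144 with a variance trend, 13 with only the arrays compared, and 52, 46 and 41 without LV replicate 2, RV 1 and RV 2. Between PV and SA it went from 562 to 348 with normexp, 67 with only the arrays compared, and 176, 245, 298 and 251 without PV replicate 4 and SA 1, 2 and 3. SA versus LA went from 2460 to 4185 with normexp, and PV versus LA from 2172 to 1264 with only the arrays compared. Normexp on mean signals was not run, since the median signals were the ones used here. Adrb3 in LV, with 3 of 4 arrays not well above background, is a level near the limit of detection.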

Other observations

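Markers of cells not set beside a receptor above also differed in level between regions. The 5 atrial myocyte markers had summed signals of 3315 to 38999 in PA, with the highest on 1 array, and the 4 ventricular markers of 984 to 16448. The 5 Schwann cell markers summed to 12478 to 17283 in PV, 6935 to 7743 in SA, 3774 to 5615 in LA, 1605 to 2435 in LV, 1967 to 3277 in RV and 1881 to 4031 in PA. The 4 autonomic neuron markers measured, of 6, summed to 1187 to 10276 in PV, 1621 to 3060 in PA and 467 to 640 in SA, and to at most 364 elsewhere. The 3 mesothelial markers measured, of 4, summed to 16175 to 20467 in LA and to at most 8682 in the other regions. The 5 fibroblast markers reached 210940 to 248080 in PA, led by Col1a1 (17.28 on the log2 scale), while Pdgfra (11.24) and Tcf21 (7.59) had their lowest means there. In the other sums too single genes went another way, as S100b of the Schwann cell list (10.37 in PA, 10.30 in PV), Stmn2 of the neuron list (9.88 in PA, 9.43 in PV) and Wt1 of the mesothelial list (9.02 in LV, 8.92 in LA). Macrophage markers summed to 1988 to 4412, lymphocyte markers to 928 to 1874 and lung epithelial markers to 135 to 901 over all arrays.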
